A study of Mus musculus with 25 samples.

Results

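Gene-body loops are H3K27ac-anchored chromatin contacts that begin and end inside the same gene without touching either end of any gene. A pair of 1 kb bins was counted as a gene-body loop when all 6 libraries listed it, its bins began less than 100 kb apart, both bins lay in the span of the same protein-coding gene, and neither bin held an annotated end of a protein-coding gene. This rule took 7049 of the 28033 loops listed in all 6 libraries (25.1%). They lay in 789 genes, and genes that held exactly the same loops were joined, which left 784 genes or gene pairs, called genes from here on. The contacts of a gene's gene-body loops were summed in each library, and the sum is the gene-body contact count of that gene.

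The libraries were made by HiChIP, in which chromatin is ligated in place and then pulled down with an antibody, here against acetylated lysine 27 of histone H3 (H3K27ac), so that contacts between acetylated sites are counted. The cells were splenic CD8+ T cells of C57BL/6J mice, activated for 2 days and rested for 4 h. The 3 genotypes (WT, a deletion in an Il2ra intron and a deletion upstream of Il2ra) were each studied without treatment (control) and with IL-2. The series asks how the Il2ra super-enhancer governs the gene, which encodes the high-affinity IL-2 receptor subunit CD25. There was 1 library for each genotype and treatment, and all 6 came from activated and rested cells. The coordinates of the deletions, the IL-2 dose and time of these libraries and the number of mice behind each were not given in the sources used here.

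Active enhancers and promoters carry H3K27ac, and many enhancers of T cell genes lie in the introns of the gene they are thought to serve. Long acetylated stretches inside a gene, often called super-enhancers, make many short contacts among their own elements. IL-2 binds its receptor on activated CD8+ T cells and signals through Jak kinases to STAT5, which binds enhancers of survival, cell cycle and cytokine receptor genes.

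Listed pairs ranged from 38879 to 94922 per library and their contacts from 1314137 to 3596995. The intron deletion control library was the shallowest: 44.0% of its gene-body loops had under 30 contacts, against 9.19% in the deepest library, WT with IL-2. A pair is listed only with 20 or more contacts, so a loop enters the class only if it reached 20 in that shallow library too. Of 31248 gene-body pairs listed in any library, 22.6% were listed in all 6. Of the T cell markers, Cd8b1, Cd2, Cd5, Cd247 and Lck held gene-body loops (5 of 12), and Cd8a, Cd3d, Cd3e and Cd3g did not. None of the 15 B cell, 13 myeloid, 7 NK cell, 8 erythroid, or 7 CD4 and regulatory T cell markers held one. Of all 21631 protein-coding genes only 789 held gene-body loops, so lists this short can easily hold none. The purity of the cells was not tested.

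Some of the anchors lay on annotated transcription start sites of the same gene that fall outside the bins holding gene ends, called internal starts. Of the 5347 anchor bins, 270 (5.05%) held such an internal start of their own gene, against 0.817% of the 62167 interior bins of these genes. These starts lay in 240 genes and were touched by 1046 of the loops (14.8%). The internal promoters below are shown because their bins were among the most connected anchors or because they belong to a gene described further on. Each runs from 250 bases before to 50 bases after the start site on the gene's own strand, taken from RefSeq (GRCm38.p6). Capitals mark a match to the ETS motif GGAAGT or the TCF/LEF motif CTTTGA on either strand.

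Pik3cd, chr4:149698659-149698958, minus strand, 32 loops at its bin: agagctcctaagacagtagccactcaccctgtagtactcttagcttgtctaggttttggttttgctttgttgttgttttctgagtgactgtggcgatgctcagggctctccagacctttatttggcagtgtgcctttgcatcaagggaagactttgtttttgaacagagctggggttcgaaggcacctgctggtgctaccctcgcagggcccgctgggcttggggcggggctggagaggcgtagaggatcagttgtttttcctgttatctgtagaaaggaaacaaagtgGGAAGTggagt

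Septin9, chr11:117332063-117332362, plus strand, 28 loops: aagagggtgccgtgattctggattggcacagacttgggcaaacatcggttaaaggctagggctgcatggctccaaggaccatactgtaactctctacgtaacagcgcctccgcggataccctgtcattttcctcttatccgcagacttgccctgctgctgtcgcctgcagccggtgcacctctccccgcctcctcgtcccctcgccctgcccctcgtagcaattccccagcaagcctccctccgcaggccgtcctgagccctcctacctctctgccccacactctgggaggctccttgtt

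Satb1, chr17:51832598-51832897, minus strand, 21 loops: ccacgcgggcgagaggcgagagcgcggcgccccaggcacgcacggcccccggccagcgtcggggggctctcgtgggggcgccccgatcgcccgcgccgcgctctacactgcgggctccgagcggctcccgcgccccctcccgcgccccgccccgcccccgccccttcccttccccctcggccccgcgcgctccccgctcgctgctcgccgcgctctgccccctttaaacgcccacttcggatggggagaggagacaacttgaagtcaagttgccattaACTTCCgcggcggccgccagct

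Rbpj, chr5:53590096-53590395, plus strand, 20 loops: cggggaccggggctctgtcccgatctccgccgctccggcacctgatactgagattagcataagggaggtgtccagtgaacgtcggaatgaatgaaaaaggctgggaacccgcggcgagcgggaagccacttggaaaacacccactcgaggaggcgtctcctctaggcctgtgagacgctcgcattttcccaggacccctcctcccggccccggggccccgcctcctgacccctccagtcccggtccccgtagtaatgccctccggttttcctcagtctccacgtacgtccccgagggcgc

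Il16, chr7:83655446-83655745, minus strand, 6 loops: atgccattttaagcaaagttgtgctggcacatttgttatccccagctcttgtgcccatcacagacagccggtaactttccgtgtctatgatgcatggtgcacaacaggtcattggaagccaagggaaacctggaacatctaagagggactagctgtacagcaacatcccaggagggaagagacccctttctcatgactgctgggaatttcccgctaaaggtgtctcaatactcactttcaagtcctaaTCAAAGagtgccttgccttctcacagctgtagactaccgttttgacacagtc

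The Pik3cd and Satb1 promoters each held 1 ETS match, the Satb1 match on the opposite strand (ACTTCC), and the Il16 promoter held 1 TCF/LEF match, written as TCAAAG. None of the 5 held a STAT match (TTCNNNGAA) or a RUNX match (TGTGGT) on either strand. The internal promoters of Ppp1r16b (22 loops at its bin) and Prkcq (21 loops) are not printed, and held no ETS, TCF/LEF, STAT or RUNX match. Over 32851 promoter windows of the same length, 23.8% held the ETS letters, 16.0% the TCF/LEF letters, 16.8% the RUNX letters and 8.30% the STAT letters. Over 299 internal starts in anchor bins the shares were 31.1%, 11.4%, 12.7% and 9.37%. These are letter matches only, and no binding data were used.

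MicroRNA hairpins lay in 8 anchor bins. The bin in Vmp1 that holds Mir21a (hairpin at chr11:86584067-86584158, minus strand) anchored 7 loops, and the bin in Wdr82 that holds Mirlet7g (chr9:106178840-106178927, plus strand) anchored 1. Their mature sequences from RefSeq are shown with the seed, bases 2 to 8, in capitals.

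mmu-miR-21a-5p: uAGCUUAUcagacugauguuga

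mmu-miR-21a-3p: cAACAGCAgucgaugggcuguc

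mmu-let-7g-5p: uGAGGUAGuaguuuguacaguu

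mmu-let-7g-3p: aCUGUACAggccacugccuugc

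The 4 seeds differ from each other. Vmp1 encodes a membrane protein of autophagy, and miR-21a is transcribed from the end of its locus. Vmp1 contacts were 3407 and 3534 (WT control and IL-2), 3332 and 3413 (intron deletion) and 3476 and 3497 (upstream deletion), on the scale described next. The 6 values of Vmp1 lay close together, and no comparison passed the test for it.

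Gene-body loops were concentrated in few genes. The median gene held 3 loops, 237 genes held 1, and 65 genes held at least as many loops as all the others combined. Septin9, which encodes a septin of the cytoskeleton, had the most with 265 loops over its 162.7 kb (chr11:117199661-117362325). It was followed by Bach2 (186 loops), a repressor of effector differentiation, and Prkcq (183), the protein kinase C theta of T cell receptor signalling. Ets1 (171), Foxp1 (146) and Fli1 (138) encode transcription factors, and Pik3cd (113) encodes the catalytic PI3K delta subunit. These 7 genes were the only ones with 100 or more loops.

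Length alone did not order the genes. The genes were longer than most, with a median of 48.3 kb against 17.3 kb over all protein-coding genes. Among the 784 genes, Pearson's r between the log10 of length and the number of loops was 0.21, and points are genes of the same 6 libraries. Per kb of gene, Glipr2, Pik3cd, Fam78a, Akna and Cd8b1 had the highest contact density. Pik3cd had 119.5 scaled contacts per kb of gene, Cd8b1, a CD8 co-receptor chain, had 90.1 and Septin9 had 87.9. The longest of the loop-rich genes, Foxp1 at 597.4 kb, had 9.7.

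**Figure D1:**
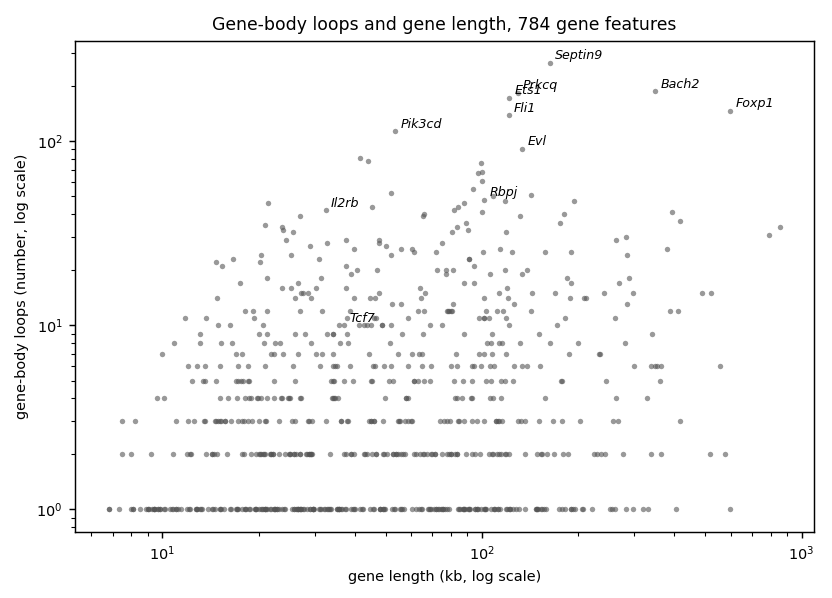
Number of gene-body loops (vertical axis, log scale) against gene length in kb (horizontal axis, log scale), 1 point per gene for 784 genes. Septin9 stands highest with 265 loops, and genes of like length range from 1 loop to over 100.

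Most gene-body loops were short. The median distance was 9 kb, with 3896 loops at 5 to 9 kb, 2083 at 10 to 19 kb, 914 at 20 to 49 kb and 156 at 50 to 99 kb. At the distance limit, the loops at 97 to 99 kb in Bcl2, Mgat5 and Bach2 had 24.8 to 37.7 unscaled contacts on average per library. The nearest pairs beyond it, at 100 to 103 kb in Mgat5 and Bcl2, had 21.8 to 53.7, and 31 such pairs within a gene were listed in all 6 libraries. The anchors leaned to the 5' side of the gene, where bins next to the one holding the gene end count as interior. The lean was not computed without those bins. In 634 genes with a known strand, the 5 equal parts of the gene from its 5' end held 37.6%, 22.6%, 17.7%, 14.1% and 7.93% of the anchor bins, whereas each part held 19.6% to 20.3% of the interior bins.

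Single bins served many loops. A bin in Septin9 (chr11:117317001-117318000) anchored 51 loops, the most of any bin. Neighbouring bins in Fli1 (chr9:32540001-32541000 and chr9:32541001-32542000) anchored 48 and 40, and bins in Bach2 (chr4:32252001-32253000) and Foxp1 (chr6:99432001-99433000) anchored 37 each. None of these held an annotated internal start, whereas the bin of Pik3cd with 32 loops and that of Septin9 with 28 did, the promoters printed above. The loop with the most contacts lay in Cdk17 (chr10:93161001-93162000 to chr10:93166001-93167000), with 284 and 305 scaled contacts in WT cells, 172 and 185 with the intron deletion and 304 and 308 with the upstream deletion (control and IL-2).

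Gene-body loops took 23.7%, 24.5% and 24.1% of the contacts of shared loops in the WT, intron deletion and upstream deletion controls. With IL-2 the shares were 23.0%, 24.4% and 23.3%. The mean share was 24.1% ± 0.390 (SD, n = 3) in controls and 23.6% ± 0.713 (n = 3) with IL-2, a difference of -0.541 points (exact two-sided permutation test, p = 0.3, where 3 libraries against 3 cannot go below 0.1). That test ignores genotype and could not have passed 0.05. Within genotypes the share was lower with IL-2 in 3 of 3, with differences of -0.707 points in WT, -0.776 with the upstream deletion and -0.139 with the intron deletion (exact two-sided sign-flip test, p = 0.25, the smallest that 3 pairs allow).

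The next comparison asked which genes changed their gene-body contacts with IL-2 over the 3 genotypes. IL-2 changed 84 of the 784 genes: 43 rose and 41 fell at an adjusted p under 0.05. Values below are contacts scaled to a common library size, and tests are edgeR quasi-likelihood tests with Benjamini-Hochberg adjustment. The test ran over 21768 features (the 784 genes and 20984 other shared loops), of which 4.12% passed, 3.18% higher and 0.942% lower. The share of gene sums that passed was 10.7%, but sums rest on more contacts than single loops do, and among single loops 2.35% of gene-body loops passed (110 higher and 56 lower), against 3.61% of shared loops outside the class and 3.3% of all shared loops. For 71 of the 84 genes the change had the same sign in each genotype. With no replicate libraries, these p-values rest on the spread between these 6 libraries, which may be technical. That spread was pooled over all features, most of them single loops, and was not estimated for each gene. Each feature alone has 2 residual degrees of freedom. The calls rest on this model: DESeq2, the gene sums fitted alone, a fit without the genotype term and the coverage of the anchor bins each gave 0 genes (58, 165, 66 and 357 at an unadjusted p under 0.05), and leaving out either WT or either upstream deletion library gave 1 to 3.

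Scaled by summed contacts in place of the trimmed mean of M-values (TMM), 32 genes rose and 48 fell. Of the 84 genes, 33 had no overlap between the control and IL-2 libraries. Over all features, 7.16% had all 3 IL-2 libraries above all controls and 5.51% had all 3 below, and over the 784 genes 5.74% and 7.14%. Anchor coverage, the HiChIP coverage listed for each anchor bin beside the contacts, moved in the same direction as the contacts in all 84. Over all 784 genes, Pearson's r between the log2 IL-2 changes of contacts and coverage was 0.81. The share of the 784 genes with the same sign was not counted. Contacts and coverage come from the same libraries, and how much of a change in contacts goes with acetylation at the anchors was not tested. Fewer cells that hold a contact and fewer contacts per cell cannot be told apart in these bulk libraries.

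Among the rises was Hemk1, which encodes a methyltransferase of translation release factors (chr9:107327082-107340437, 5 loops). Its scaled contacts were 227, 267 and 246 in the WT, intron deletion and upstream deletion controls and 498, 324 and 490 with IL-2. Every IL-2 library lay above every control, with the intron deletion the lowest of the IL-2 libraries. The log2 fold change was 0.83 (SE 0.088, edgeR adjusted p = 2.04e-16), and all 5 loops rose singly.

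Most of the other large rises rested on 1 to 3 loops. Chtop, an mRNA export factor, had the largest fold change of the called genes, 2.02-fold on a single loop that went from 25.1 to 31.4 scaled contacts in controls to 45.8 to 62.5 with IL-2. The single loop of Ccr4, a chemokine receptor, went from 25.1 to 37.2 in controls to 44.0 to 73.3 with IL-2 (1.85-fold). In both genes the groups did not overlap. Stk39, Fmnl3, Arid5a, Agpat3, Ppp1r3f, Slc17a9 and Set completed the 10 largest rises among the genes with the same sign in each genotype, with log2 fold changes of 0.50 to 0.83.

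Among genes with the same sign in each genotype, the largest falls were on 2 to 14 loops, except Jpt1 with 1. Dgka, a diacylglycerol kinase that dampens T cell receptor signalling, had 92.4, 66.1 and 113.5 scaled contacts in the controls and 56.7, 62.4 and 51.3 with IL-2. The groups did not overlap, but in the intron deletion the 2 values were close (log2 fold change -0.67, SE 0.157, edgeR adjusted p = 0.00177). Arhgap45, a GTPase activating protein, fell from 916, 813 and 961 to 625, 767 and 608 (log2 fold change -0.43, SE 0.067). Here too the groups did not overlap. Irak2, Pptc7, Jak2, Cd96, Klf3, Gramd3 and Bicra also fell, by 0.41 to 0.59 on the log2 scale.

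The listed IL-2 and STAT5 targets with gene-body loops mostly rose. The list was chosen with earlier results of these data known, so its counts are no independent support. Of 30 genes on the list 8 were measured, and 5 rose (Bcl2, Cdk6, Il2rb, Lif and Tnfrsf9) while 3 (Bcl2l1, Ccnd2 and Ccnd3) did not pass. The median log2 change was 0.35, against -0.03 over all 784 genes. Bcl2, the survival factor, had 11 of 36 loops that rose singly and a log2 fold change of 0.40 (SE 0.057, edgeR adjusted p = 3.91e-09). Il2rb, the beta subunit of the IL-2 receptor, had 2483, 2063 and 2425 scaled contacts in the controls and 3128, 2259 and 3242 with IL-2. The intron deletion library with IL-2 lay below 2 of the 3 controls, so the groups overlapped (log2 fold change 0.30, SE 0.051, edgeR adjusted p = 2.7e-06). Cdk6, a kinase that drives entry into the cell cycle, rose 1.36-fold, although it was nearly unchanged in the intron deletion (values further on). Lif, a cytokine of the IL-6 family, rose 1.53-fold, although its values in the intron deletion were 98.5 and 95.4.

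The counts of the lists stand beside 5.48% of all gene sums that rose and 5.23% that fell, and no difference from these shares was tested. Among 29 measured T cell transcription factors, 2 fell (Tcf7 and Stat4) and none rose. The 27 others did not pass, among them Ets1, Bach2 (log2 change -0.01), Foxp1 (0.06) and Fli1 (0.10), all rich in loops. Of 26 T cell receptor signalling genes, Ubash3a rose and Dgka, Ptpn22 and the joined pair Sla/Tg fell. Sla, an adaptor that lowers receptor levels, lies within Tg, so their 40 loops cannot be told apart. Of 28 adhesion and cytoskeleton genes, Wipf1 rose and Arhgap45, Cd96, Dock2, Evl, Fyb and Lcp1 fell.

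Of 11 cytokine receptor and Jak kinase genes, Il2rb, Il4ra and Tnfrsf9 rose and Jak2 and Tgfbr2 fell. Of 15 chromatin regulators, Arid5a and Kdm6b, a histone H3 lysine 27 demethylase, rose. Of the 9 growth and nutrient genes, Hk2, a hexokinase, rose, and of 6 cell cycle genes only Cdk6 did. None of the 9 NF-kB and AP-1 genes and none of the 8 mRNA decay and phosphatase genes passed, nor did Srgn, the sole measured cytotoxic gene, or Ywhaz, the sole measured housekeeping gene. The 5 measured T cell markers did not pass either, with a median log2 change of -0.05.

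The response to IL-2 was then compared between genotypes. Among genes with many loops, IL-2 changes were alike in size in WT and the upstream deletion and smaller in the intron deletion. In the 186 genes with at least 10 loops, the SD of the log2 IL-2 change was 0.23 in WT, 0.25 in the upstream deletion and 0.10 in the intron deletion. Pearson's r between WT and upstream deletion was 0.90 with a slope of 1.0, and between WT and intron deletion 0.40 with a slope of 0.18. Over all 784 genes the SDs were 0.32, 0.35 and 0.23 in the same order. There r was 0.58 with a slope of 0.62 for WT and upstream deletion, and 0.12 with a slope of 0.084 for WT and intron deletion. These are descriptions across genes, which share libraries and are not replicates.

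**Figure D2:**
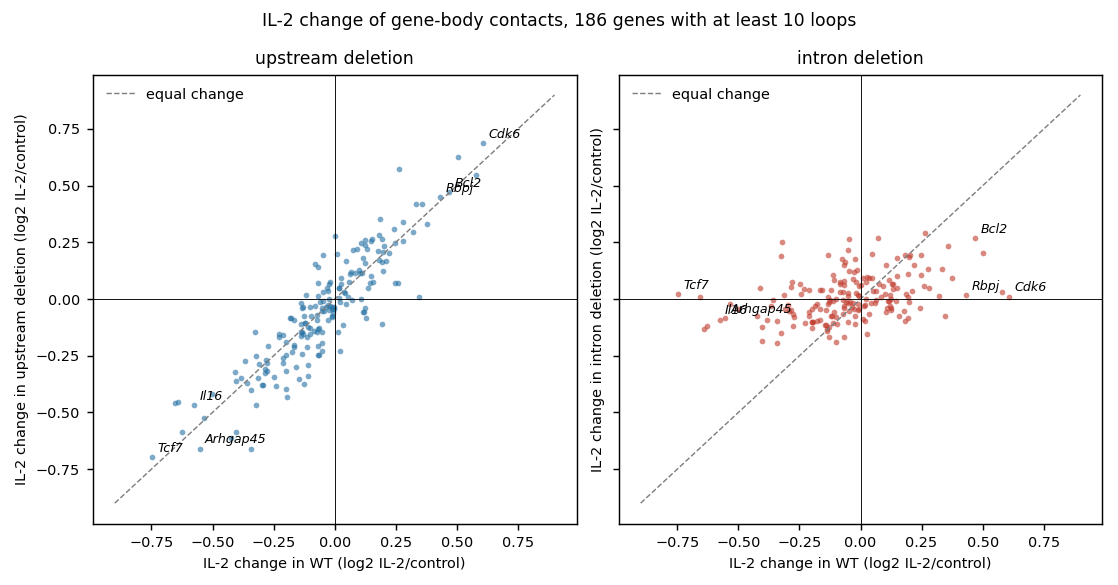
Log2 IL-2 change of gene-body contacts in the upstream deletion (left) and the intron deletion (right) against that in WT, 1 point per gene for 186 genes with at least 10 loops, with the dashed line marking equal change. Points follow the line on the left (slope 1.0) and lie near the horizontal zero line on the right (slope 0.18).

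A term for the IL-2 response of the intron deletion against the other genotypes passed for 32 genes (4.08% of gene sums; of all features 0.28% passed, 0.124% higher and 0.156% lower). The same term passed for no gene when WT or the upstream deletion was set against the rest by edgeR (20 and 28 genes at an unadjusted p under 0.05) or by DESeq2. Those fits pool the intron deletion with another genotype, so any difference in its response adds to their residual spread. The lack of calls there therefore does not show that WT and the upstream deletion respond alike. For the intron deletion too, DESeq2 called 0 genes (16 at an unadjusted p under 0.05). Of the 32 genes, 22 fell in both WT and the upstream deletion and 10 rose in both. The change in the intron deletion was smaller than in both other genotypes for 29 and opposite in sign to that of WT for 18. This test has 1 residual degree of freedom and 1 library behind each value. The intron deletion control is also the shallowest library, and the part of depth in these differences was not tested.

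Rbpj, the DNA-binding factor of Notch signalling, is an example (chr5:53555779-53657445, 48 loops). Its scaled contacts went from 2671 to 3606 with IL-2 in WT, from 2654 to 3621 in the upstream deletion and from 2072 to 2097 in the intron deletion. Both intron deletion libraries lay below the other 4. The difference in response was -0.42 on the log2 scale (SE 0.060, edgeR adjusted p = 1.8e-08). Of its 48 loops, 45 were higher with IL-2 in WT, 44 in the upstream deletion and 25 in the intron deletion. The gene was named for the sum of these loops, many of which share anchors, and all share the libraries. The loop counts therefore describe the sum and add no support. The loop with the largest rise joined chr5:53567001-53568000 to chr5:53592001-53593000, with 26.7 and 82.2 scaled contacts in WT cells, 25.9 and 42.2 with the intron deletion and 43.7 and 76.4 with the upstream deletion. The loops of Rbpj spanned 4.7 to 43.7 kb from the 5' end of this 101.7 kb gene, a stretch that holds the internal promoter printed above.

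Tcf7 encodes TCF1, a factor of naive and memory T cells (chr11:52246527-52283383, 10 loops). Its contacts went the other way, from 429 to 256 in WT and from 510 to 314 in the upstream deletion, but from 578 to 587 in the intron deletion. Both intron deletion libraries lay above the other 4. The difference in response was 0.74 (SE 0.118, edgeR adjusted p = 9.39e-07). With IL-2, all 10 loops were lower in both WT and upstream deletion, and 5 of 10 in the intron deletion. As for Rbpj, these counts describe the sum for which the gene was named and add no support.

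**Figure D3:**
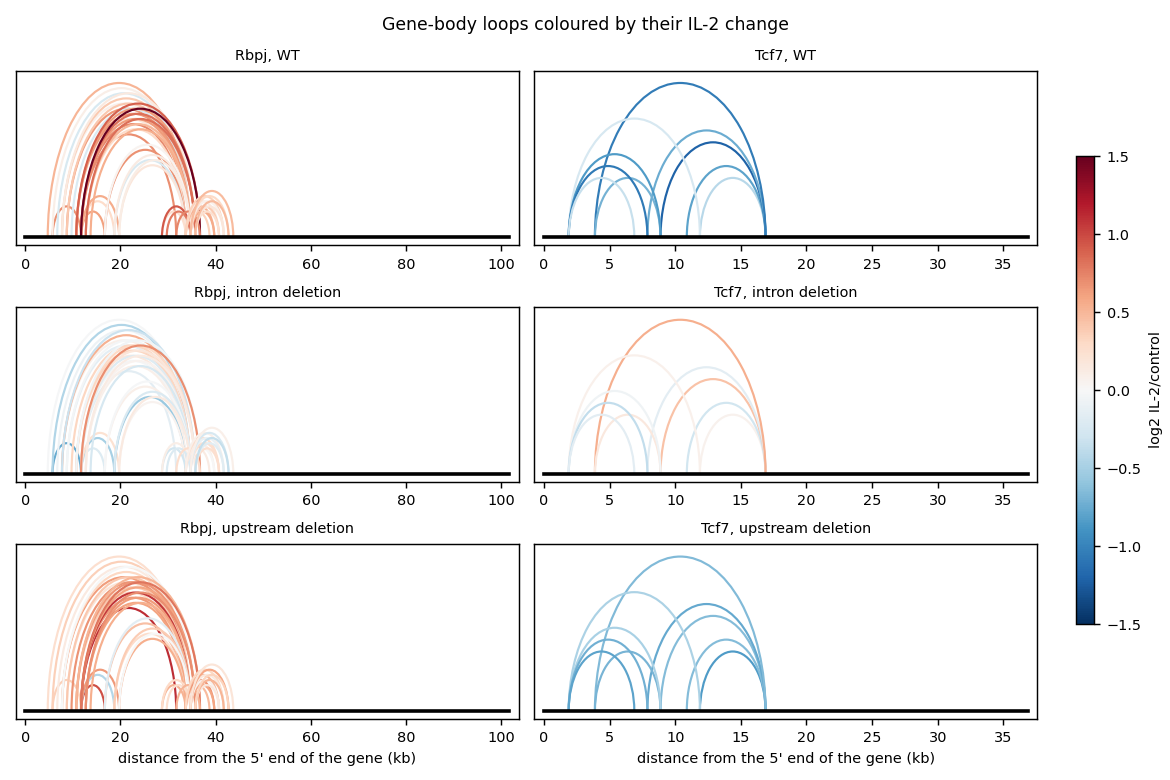
Gene-body loops of Rbpj (left) and Tcf7 (right) drawn as arcs along the gene, with distance from its 5' end in kb on the horizontal axis and arc height scaled to loop length, in WT, intron deletion and upstream deletion. Colour gives the log2 IL-2 change of each loop (red higher, blue lower). Of 48 Rbpj loops, 45 and 44 were higher in WT and the upstream deletion, and 25 in the intron deletion. Loops of a gene share libraries and are not replicates.

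Of the 28 adhesion and cytoskeleton genes 4 passed for a differing response (Arhgap45, Dock2, Evl and Lcp1), beside 4.08% of all gene sums, and whether these shares differ was not tested. Lcp1, the actin bundler L-plastin (61 loops), went from 3492 to 2720 in WT, 3766 to 2912 in the upstream deletion and 2917 to 2908 in the intron deletion. Evl, an Ena/VASP actin regulator (91 loops), went from 5604 to 4514, 5809 to 4566 and 4847 to 4901 in the same order. The intron deletion values of Evl lay between the control and IL-2 values of the other genotypes, and those of Lcp1 were near the upstream deletion value with IL-2. Dock2, a Rac activator needed for T cell migration (6 loops), went from 206 to 137 in WT, 251 to 162 in the upstream deletion and 330 to 359 in the intron deletion, where both values were the highest of the 6.

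Cdk6 (17 loops) went from 633 to 966 in WT, 661 to 1065 in the upstream deletion and 669 to 673 in the intron deletion. Its 3 controls lay between 633 and 669, whereas the IL-2 libraries ranged from 673 to 1065. Il16, a cytokine precursor gene (12 loops), went from 928 to 622, 959 to 693 and 1034 to 971 in WT, upstream and intron deletion. Coro2a, a coronin (7 loops), had the largest difference in response, -1.17 (SE 0.160, edgeR adjusted p = 6.98e-09): 258 to 421 in WT, 207 to 451 in the upstream deletion and 273 to 226 in the intron deletion. With the WT and upstream deletion libraries alone, a setting chosen after seeing the data, 164 genes changed with IL-2 (73 higher, 91 lower), where 7.25% of all features passed. This fit uses 4 of the same 6 libraries and is no independent support.

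**Figure D4:**
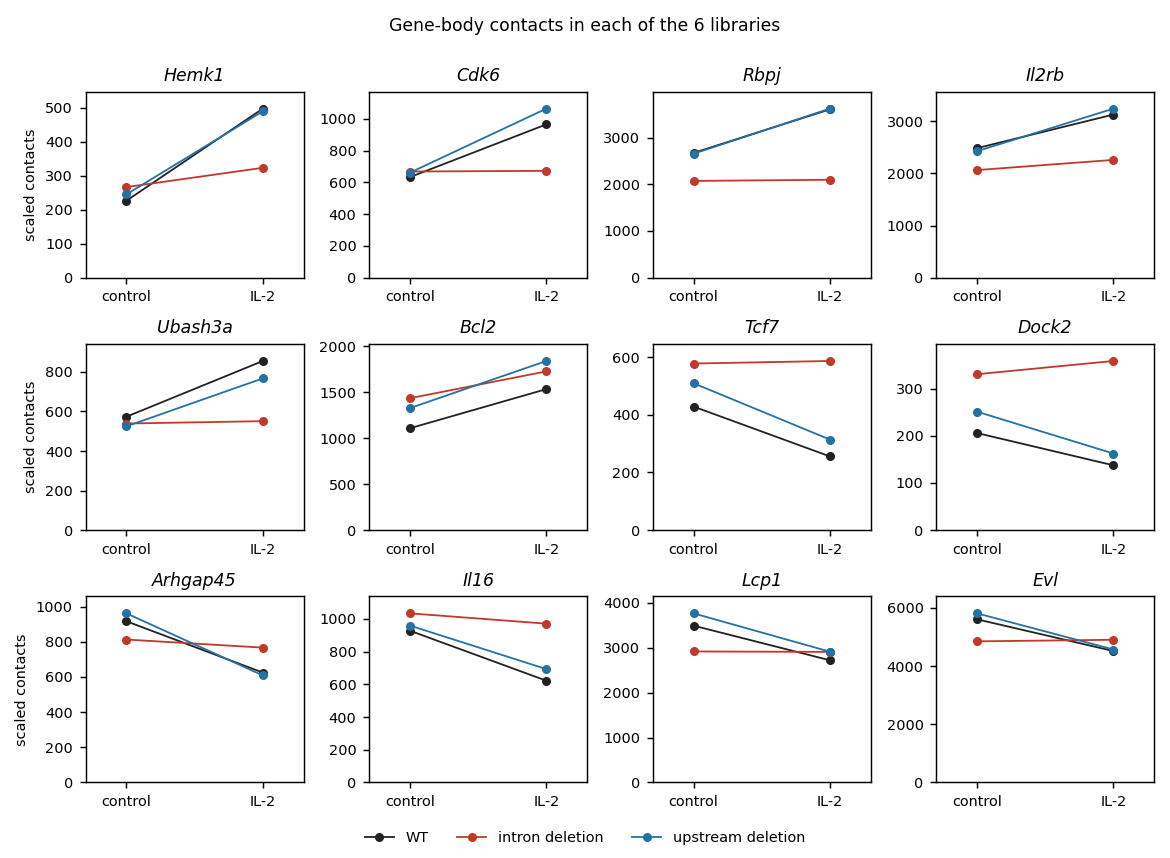
Scaled gene-body contacts (vertical axis, starting at 0) in the control and IL-2 library of each genotype for 12 genes, 1 point per library and a line joining the libraries of a genotype. In Rbpj the WT and upstream deletion lines rise from 2671 and 2654 to 3606 and 3621 and the intron deletion line stays near 2072 to 2097, and in Tcf7 it lies above the falling lines of the others.

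Il2ra itself held no gene-body loop in all 6 libraries. The interior of Il2ra held 52 listed pairs with 1566 scaled contacts in the WT control and 67 pairs with 2059 with IL-2. The upstream deletion listed 27 pairs with 817 scaled contacts and 41 with 1280. The number of pairs a library lists also depends on its depth. The intron deletion listed 0 pairs in both libraries. A pair under 20 contacts would not be listed, and the coordinates of the deletion were not given, so this alone cannot check the label. Within 1 Mb of Il2ra, Prkcq and Pfkfb3 had gene-body loops.

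The intron deletion was next set against WT over both treatments. The gene-body contacts of 214 genes differed: 129 rose and 85 fell in the intron deletion. Of all features 11.7% passed (5.95% higher, 5.7% lower), and 27.3% of the gene sums did. Of gene-body loops taken singly 862 passed (597 higher, 265 lower, 12.2%), against 11% of shared loops outside the class and 11.3% of all. The direction was the same with and without IL-2 for 212 of the 214, all but Cdk6 and Coro2a. DESeq2 called 38 genes, and leaving out a library gave 50 to 259, the fewest without the WT IL-2 library. The intron deletion control was the shallowest library, and without it the count was 259. A loop with under 20 contacts in that library is not in the class, so the largest falls can be missed. By anchor coverage 198 genes rose and 207 fell. In every other alternative more genes rose than fell, with 151 and 120 for pairs listed in at least 4 libraries.

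Prkcq, near the deleted locus on chromosome 2 (chr2:11171905-11301226), was the highest in the intron deletion. Its scaled contacts were 6462 and 6944 in WT cells, 7311 and 7917 with the upstream deletion and 9971 and 11056 with the intron deletion. The 3 genotypes did not overlap. The log2 fold change of intron deletion against WT was 0.65 (SE 0.051, edgeR adjusted p = 1.83e-33), and 96 of its 183 loops rose singly while none fell. In the upstream deletion it was 0.18 (SE 0.051, edgeR adjusted p = 0.0795), which did not pass. Pfkfb3, a glycolytic regulator with 4 loops, did not pass in either deletion.

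The largest rises were in Scml4, a Polycomb-related gene (5 loops), with 144 and 126 scaled contacts in WT cells, 341 and 345 with the intron deletion and 234 and 179 with the upstream deletion. The intron deletion libraries were the highest and the WT libraries the lowest (log2 fold change 1.36, SE 0.124, edgeR adjusted p = 2.66e-24). Gramd3 (12 loops) had 462 and 299 in WT cells and 819 and 755 with the intron deletion, and all 12 loops rose singly. Kbtbd11 (7 loops) had 233 and 285 against 522 and 611, and all 7 rose. Rere, a transcriptional co-regulator (9 loops), had 253 and 243 against 499 and 531. In these 3 genes every intron deletion library lay above both WT libraries. Zfp831, Ddc, Apbb1ip, Ppp1r9b, Dyrk2 and Sh3bp5 completed the 10 largest rises, on 1 to 3 loops each.

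Among the falls, Lif had 146 and 249 scaled contacts in WT cells and 98.5 and 95.4 with the intron deletion (log2 fold change -1.04, SE 0.147, edgeR adjusted p = 4.02e-10). Both intron deletion libraries lay below both WT libraries, and the WT values were further apart from each other. Dusp4, a MAP kinase phosphatase, had 128 and 99.4 against 63.5 and 60.5. Ttc39c, Ifnar2, Abr, Fam110a, Prxl2a, Tnfaip8, Lmnb1 and Sema4c also fell, each on a single loop. Single loops of Cdk17 and Septin9 fell most: a Cdk17 loop of 26 kb had 74.3 and 86.3 scaled contacts in WT cells and 27.2 and 23.8 with the intron deletion.

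The counts by list stand beside 16.5% of all gene sums that rose and 10.8% that fell, and no difference from these shares was tested. The intron deletion had 5 rises and 4 falls among 29 T cell transcription factors. Tcf7, Elf1, Ikzf1, Bach2 and Lef1 rose, Tcf7 by 0.82 and Elf1 by 0.58 on the log2 scale, and Batf, Irf4, Fli1 and Satb1 fell. Of 26 T cell receptor signalling genes 5 rose, among them Prkcq, Plcg1 (log2 change 0.76) and Pik3cd, and 4 fell. Of 28 adhesion and cytoskeleton genes 8 rose and 3 fell. Selplg, a selectin ligand, rose by 0.88 on the log2 scale. Of 11 cytokine receptor genes 1 rose and 5 fell, Il2rb by a log2 change of -0.37. Of the 8 IL-2 and STAT5 targets 1 rose (Bcl2) and 4 fell over both treatments (Ccnd2, Cdk6, Il2rb and Lif). For Cdk6 the sign turned between treatments, with 669 in the intron deletion against 633 in WT in controls and 673 against 966 with IL-2. Cd8b1 rose, with a log2 change of 0.57, and the 4 other T cell markers did not pass.

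**Figure D5:**
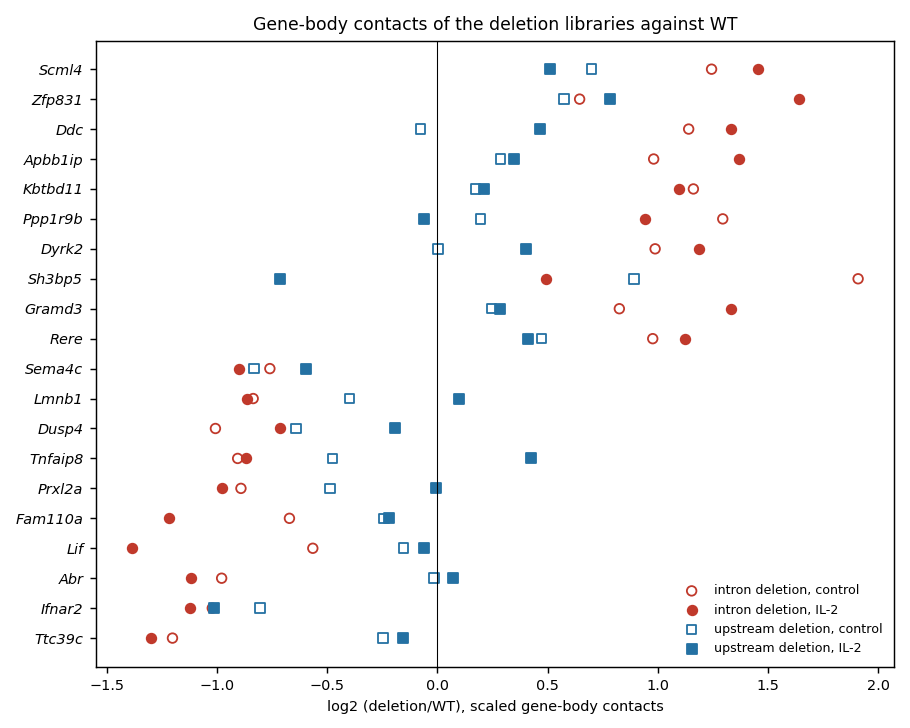
Log2 ratio of scaled gene-body contacts in the intron deletion (red circles) and the upstream deletion (blue squares) to those in WT of the same treatment, open for control and filled for IL-2, for the 10 largest rises and 10 largest falls in the intron deletion. All red circles lie on 1 side of 0 for each gene because the rule for naming genes asked for it. The genes were also picked for the size of their change in the intron deletion. Blue squares nearer to 0 are therefore no comparison of the deletions.

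The upstream deletion differed from WT at far fewer genes. Of 784 genes 20 passed, 12 higher and 8 lower (2.55% of gene sums, and 0.28% of all features, 0.17% higher and 0.11% lower), each with the same sign in both treatments. Singly, 3 gene-body loops passed (0.0426%, against 0.0905% outside the class and 0.0785% of all shared loops). DESeq2 called 0 genes (26 at an unadjusted p under 0.05) and the gene sums alone gave 3. Without either intron deletion library the count was 53, and without any of the other 4 it was 0 or 1.

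Gata3, a transcription factor of T cell development (23 loops), had 901 and 824 scaled contacts in WT cells, 937 and 834 with the intron deletion and 1239 and 1114 with the upstream deletion. Both upstream deletion libraries lay above the other 4 (log2 fold change 0.45, SE 0.077, edgeR adjusted p = 2.35e-05). Hipk2, a nuclear kinase (14 loops), had 403 and 359 in WT cells, 542 and 508 with the intron deletion and 583 and 547 with the upstream deletion, so both deletions lay above WT. Srebf1, a regulator of lipid synthesis (4 loops), had 268 and 288 in WT cells, 158 and 175 with the intron deletion and 147 and 157 with the upstream deletion, so both lay below. The log2 fold change of Srebf1 in the upstream deletion was -0.87 (SE 0.127, edgeR adjusted p = 7.11e-08). Cyria, Scml4, Tspan9, Rere, Birc3, Gm8369, Msi2 and Mbnl1 rose and Ifnar2, Slc1a2, Rai1, Tpcn1, Lrrc8a, Zfpm1 and Syne3 fell. The 2 further rises were smaller than these. The comparisons of the deletions share the 2 WT libraries, so a value that is low or high in WT moves both.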

How the data were processed

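The 6 H3K27ac HiChIP libraries were analysed, 1 for each genotype and treatment, and the 19 ChIP-seq samples of the series were not analysed here. The values are counts: contacts per pair of 1 kb bins, deposited by the authors in per-library lists with at least 20 contacts and a distance of at least 5 kb. Per the submitters' processing notes, Bowtie2 2.2.6 and HiC-Pro were used with mm10, and the settings of the loop caller were not given in the sources used here.

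Genes and start sites came from RefSeq (GRCm38.p6), and exon and intron positions were not used. Contacts were summed per gene over its gene-body loops and fitted with edgeR 4.0.16 (R 4.3.3) by quasi-likelihood, with genotype and treatment as additive terms. The table held 784 gene sums and 20984 other shared loops, scaled by TMM factors from all 28033 shared loops. All features shared 1 estimate of spread (infinite prior degrees of freedom). P-values were adjusted by Benjamini-Hochberg over the whole table at 0.05. Single loops were fitted in the table of all shared loops. In simulated data for IL-2 against control over 21768 features, 17% of changes of 0.3 and 52% of changes of 0.5 (log2) were recovered. Of 72 calls, 3 were false. The simulated counts had the common spread of the fit, no genotype differences and the same IL-2 change in each genotype. The real data need not meet these settings, so the simulation does not give the error rate of the real calls. Depth limits precision: weak loops in the shallowest library rest on 20 to 30 contacts.

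Named genes were, per comparison, up to 10 rises and 10 falls with the largest fold change among those called with the same sign in each genotype or treatment, the 15 genes with the most contacts or loops, genes within 1 Mb of Il2ra, and members of 12 functional lists. Genes with a differing IL-2 response were named as well, after their values were seen. The members and lists were chosen with earlier results of these data known. Alternatives covered DESeq2 1.42.0, scaling, low counts, distance, gene ends, listing, coverage and leaving out libraries. Single results for a few genes are not reported here, although the counts include them.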

Additional observations from a re-analysis of the deposited data

Results flagged for a closer look

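For 32 genes the IL-2 response of the intron deletion differed from that of the other 2 genotypes by the test of the difference itself (edgeR quasi-likelihood, adjusted p from 6.98e-09 to 0.0441). The values in brackets are the log2 IL-2 change of the intron deletion minus that of the other genotypes. Negative values, where contacts rose with IL-2 in WT and the upstream deletion, were found for Coro2a (-1.17), Rad50 (-0.96), Hemk1 (-0.79), Clec16a (-0.68), Cdk6 (-0.64), Zbtb32 (-0.54), Ubash3a (-0.53), Rbpj (-0.42), Cyth1 (-0.26), Il2rb (-0.24). Positive values, where contacts fell with IL-2 in those genotypes, were found for Fam78a (0.23), Zc3hav1 (0.25), Akna (0.26), Pik3cd (0.26), Ptpn22 (0.33), Evl (0.35), Rnf43 (0.35), Kat2b (0.36), Lcp1 (0.36), Utrn (0.42), Pik3r5 (0.43). Larger positive values were found for, among others, Il16 (0.43), Laptm5 (0.44), Arhgef3 (0.44), Gramd3 (0.49), Arhgap45 (0.52), Ms4a6b (0.54), Stk4 (0.57), 4930523C07Rik (0.63), Dock2 (0.72), Tcf7 (0.74). Of the 32 genes, 24 also passed for IL-2 over all 6 libraries. The intron deletion control, from which its response is measured, is the library with the fewest contacts, and the part of depth was not tested.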

How the results depend on the processing

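The IL-2 count of 84 genes became 0 with DESeq2 (58 at an unadjusted p under 0.05, and 205 genes had no adjusted p), 0 with the gene sums fitted alone, 0 with anchor coverage, 0 without the genotype term, 29 with loops of 10 kb or more (fewer genes tested), 35 with contacts of the gene's end bins and 164 with the WT and upstream deletion libraries only. The intron deletion count of 214 became 38 with DESeq2, 86 with loops of 10 kb or more, 405 with coverage and 80 with the gene's end bins. The upstream deletion count of 20 became 0 with DESeq2, 6 with a mean of at least 40 contacts, 3 with the gene sums alone, 7 with loops of 10 kb or more, 12 with no anchor within 1 bin of a gene end, 12 with pairs listed in at least 4 libraries and 1 with the gene's end bins. For single loops DESeq2 gave 0 of 166 (107 at an unadjusted p under 0.05) for IL-2, 22 of 862 for the intron deletion and 0 of 3 (24 unadjusted) for the upstream deletion, and the WT and upstream deletion libraries only gave 411 for IL-2. Where no cause is named, the cause was not tested.

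Leaving out each library in turn gave 1 to 168 genes for IL-2, 50 to 259 for the intron deletion and 0 to 53 for the upstream deletion. For single loops it gave 1 to 415, 115 to 855 and 0 to 18. With IL-2, the low counts came without a WT or upstream deletion library (1 without the WT control, 3 without each of the others) and the high ones without the intron deletion control (166) or its IL-2 library (168). For the intron deletion, 80 were left without the WT control, 50 without the WT IL-2 library and 124 without the intron deletion IL-2 library.

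Of the single genes named for IL-2, Slc17a9 (-0.058) and Pptc7 (0.088) turned direction with contacts of the gene's end bins. Over the alternatives of the genes named for IL-2, 164 values stayed on their side of the threshold and 160 lost it. For the intron deletion these were 240 and 40, and for the upstream deletion 137 and 150. DESeq2 gave no adjusted p for 5 of the genes named for IL-2 and 5 of those named for the intron deletion, which are not counted. The count of 32 genes with a differing IL-2 response became 33 under the other scaling. It became 0 with DESeq2, 13 with the gene sums alone, 5 with loops of 10 kb or more, 8 with contacts of the gene's end bins and 263 with coverage, alternatives chosen after seeing the data. Leaving out a library could not be fitted for it, since no residual degrees of freedom remain. The genotype term already sets the control and IL-2 library of each genotype against each other. Beyond it, no paired analysis was possible because the labels give no replicate numbers and each genotype and treatment has 1 library.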
